A study of Mus musculus with 12 samples.

Results

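The 76 nuclear genes named for proteins of the mitochondrial ribosome were followed in mouse splenic B cells. They were taken as the genes of the count table whose names begin with Mrps or Mrpl followed by a number and at most 1 letter, with Mrpl51 left out. They make up 76 of the 32699 gene names in the table, 29 named Mrps after the small subunit and 47 named Mrpl after the large subunit. Their counts come from 142 transcripts. All 76 passed the filter on low counts in a table where 19125 genes were tested.

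Mitochondria keep their own ribosome, which makes a small set of membrane proteins of the respiratory chain and of ATP synthase from mitochondrial DNA. Its protein parts are encoded in the nucleus, made in the cytosol and imported, so the ribosome is assembled from the products of both genomes. Many of these proteins are homologs of bacterial ribosomal proteins, and others are found in mitochondrial ribosomes alone. Resting B cells are small and quiescent, and stimulated B cells grow, divide and enlarge their mitochondria.

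The study sequenced RNA of splenic B cells labelled WT (wild-type) or KO (Chd4 knockout), unstimulated (0 hr) or after 48 hr ex vivo with lipopolysaccharide (LPS, 10 µg/ml), which activates B cells, and mouse interleukin 4 (IL-4, 25 ng/ml). CHD4 is an ATP-dependent chromatin remodeller of the NuRD complex. Each of the 4 groups had 3 libraries. At 0 hr WT libraries carry the replicate numbers 1 to 3 and KO libraries 4 to 6, and at 48 hr WT libraries carry 7 to 9 and KO libraries 10 to 12. The sources used here do not give how and in which cells Chd4 was deleted, the strain, age and sex of the mice, or whether replicates came from separate animals. A p-value therefore stands for the spread between libraries of a group, and that spread may be technical.

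Libraries held 38956484 to 53189198 estimated counts. Levels are given as CPM, the depth-scaled count unit, after TMM scaling (trimmed mean of M values), and differences as log2 fold changes with their standard error (SE). Chd4 itself was at 68.1 to 99.4 CPM in WT and 70.6 to 100.02 CPM in KO libraries at 0 hr, so its RNA did not set the labels apart there. At 48 hr it was at 96.1 to 123 CPM in WT and at 51.3, 38.8 and 74.7 CPM in KO replicates 10, 11 and 12 (log2 fold change -0.96, SE 0.22, edgeR adjusted p = 0.038). WT and KO therefore mean libraries labelled so. Xist, the X-inactivation RNA of female cells, was at 217 to 293 CPM in WT 0 hr and at 1.56 to 1.59 CPM in KO 0 hr. Ddx3y, a gene of the Y chromosome, was at 23.5 to 28.3 CPM in WT 0 hr and 91.8 to 139 CPM in KO 0 hr. Genotype and sex-linked expression therefore cannot be told apart. No member lies on X or Y, and an effect of sex on genes of other chromosomes was not tested. B cell genes were present in every group: Cd79a, of the B cell receptor complex, was at 2273 to 2825 CPM at 0 hr and 789 to 950 CPM at 48 hr, and Ms4a1, which encodes CD20, at 1075 to 1964 CPM and 2327 to 2769 CPM. Over time Ms4a1 rose, Cd79a, Pax5, Ebf1, Cd22 and Blk fell in WT and in KO, and Cd79b did not pass the test in either.

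Members were spread over 17 chromosomes, with none on X or Y. Promoters of 5 members, 250 bases before to 50 bases after the RefSeq start, are shown because they cover the range of responses: the largest rise in WT (Mrpl20), the largest rise in KO (Mrps22), a member with NRF1 and YY1 letters (Mrpl32), a member of the decoding centre (Mrps12) and the smallest rise (Mrpl43). Capitals mark 3 strings of letters, on either strand: the NRF1 string GCGCATGC, the ETS string CCGGAAG and the YY1 string AAGATGGC. Sequences are from RefSeq on GRCm38.p6, written 5′ to 3′ along the gene: Mrpl20 at chr4:155802628-155802927 (plus strand), Mrps22 at chr9:98601630-98601929 (minus), Mrpl32 at chr13:14612988-14613287 (minus), Mrps12 at chr7:28741772-28742071 (minus) and Mrpl43 at chr19:45006393-45006692 (minus).
Mrpl20: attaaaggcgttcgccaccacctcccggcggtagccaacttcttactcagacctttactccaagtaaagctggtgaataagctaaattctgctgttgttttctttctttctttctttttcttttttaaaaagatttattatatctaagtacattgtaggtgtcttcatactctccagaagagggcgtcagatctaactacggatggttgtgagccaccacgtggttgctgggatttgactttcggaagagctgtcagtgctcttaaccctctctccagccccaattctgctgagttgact
Mrps22: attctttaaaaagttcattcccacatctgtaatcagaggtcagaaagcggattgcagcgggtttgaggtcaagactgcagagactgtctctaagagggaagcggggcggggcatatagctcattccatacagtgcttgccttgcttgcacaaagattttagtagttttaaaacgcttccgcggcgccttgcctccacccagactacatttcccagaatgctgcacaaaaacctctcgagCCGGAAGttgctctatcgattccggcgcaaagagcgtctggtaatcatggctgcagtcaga
Mrpl32: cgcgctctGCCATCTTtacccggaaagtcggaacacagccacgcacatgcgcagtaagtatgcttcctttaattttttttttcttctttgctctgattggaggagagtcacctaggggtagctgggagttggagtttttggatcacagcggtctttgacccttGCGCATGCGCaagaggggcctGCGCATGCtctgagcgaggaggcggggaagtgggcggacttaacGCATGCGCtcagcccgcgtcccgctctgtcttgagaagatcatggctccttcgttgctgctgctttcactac
Mrps12: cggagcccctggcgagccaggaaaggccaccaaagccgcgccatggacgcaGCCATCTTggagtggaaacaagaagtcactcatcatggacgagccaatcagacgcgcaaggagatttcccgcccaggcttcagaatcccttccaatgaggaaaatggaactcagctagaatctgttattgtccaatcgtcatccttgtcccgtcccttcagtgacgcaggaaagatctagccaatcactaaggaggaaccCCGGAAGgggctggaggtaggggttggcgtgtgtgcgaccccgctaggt
Mrpl43: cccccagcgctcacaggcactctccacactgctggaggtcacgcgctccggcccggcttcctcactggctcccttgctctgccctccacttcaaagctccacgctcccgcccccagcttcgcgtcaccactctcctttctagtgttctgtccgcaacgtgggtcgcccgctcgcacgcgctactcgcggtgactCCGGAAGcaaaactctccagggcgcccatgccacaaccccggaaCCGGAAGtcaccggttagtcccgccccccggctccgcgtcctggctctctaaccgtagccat

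NRF1 and the ETS factor GABP are known regulators of nuclear genes for mitochondrial proteins, and YY1 is a zinc-finger factor whose sites lie near many start sites. RefSeq windows were matched for 67 of the 76 members. The ETS string was in 24 of those 67 (35.8%), against 16.9% of the tested genes with a window and 8.86% of all windows of that length. The YY1 string was in 12 members (17.9%), against 4.61% of tested genes and 2.75% of all windows. The NRF1 string was in 8 members (11.9%), against 5.24% of tested genes and 2.71% of all windows, and the window of Mrpl32 held it 4 times, overlapping occurrences counted. Both ETS and YY1 strings stood in Mrps12, Mrps18a and Mrps27, NRF1 and ETS strings in Mrpl17, Mrpl22, Mrpl33 and Mrps18b, and the window of Mrpl43 held the ETS string 2 times.

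Other strings were no more frequent in members than in tested genes. The SP1 string GGGCGG was in 49.3% of members and 61.5% of tested genes (35.7% of all windows). CCAAT was in 40.3% and 42.4% (37.4%), the E-box CACGTG in 7.46% and 10.9% (7.15%), and TATAAA in 7.46% and 10.1% (13.6%). Each of the 7 strings was searched on both strands, and none contains another. These matches describe letters in a window and were not tested. Members with the ETS string had a median log2 fold change over 48 hr in WT of 2.25, and members without it 2.23. With and without the YY1 string the medians were 2.13 and 2.25, and with and without the NRF1 string 2.34 and 2.23.

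Every member rose over 48 hr in WT. Summed over the 76 genes, the level was 2096, 2104 and 1850 CPM in WT 0 hr replicates 1, 2 and 3, and 9540, 10152 and 8635 CPM in WT 48 hr replicates 7, 8 and 9. The groups stood far apart, at 2016 ± 145 and 9442 ± 763 CPM (SD, n = 3). All 76 members passed edgeR's quasi-likelihood test as higher (adjusted p 1.4e-10 to 0.0011), where 33% of all tested genes were called higher and 40.9% lower. In all 76 every 48 hr library lay above every 0 hr library, which held for 34.9% of all genes. The median member log2 fold change was 2.23 (4.68-fold), from 0.56 to 3.48, against -0.39 for all genes. At least 2-fold rises were called in 74 members (23.3% of all genes), at least 4-fold in 46 (10.3%) and at least 8-fold in 6 (3.81%).

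Members also rose in KO. Their summed level was 2327, 1764 and 2206 CPM in KO 0 hr replicates 4, 5 and 6, and 8420, 9106 and 8551 CPM in KO 48 hr replicates 10, 11 and 12. Again the groups did not overlap, with 2099 ± 296 and 8692 ± 364 CPM (SD, n = 3). All 76 were called higher (adjusted p 1.6e-10 to 0.01; background 33% higher and 37.7% lower), and in all 76 the libraries did not overlap (33% of all genes). The median log2 fold change was 1.95 (3.87-fold), from 0.40 to 3.17, against -0.30 for all genes. Rises of at least 2-fold were called in 72 members (22.8%), of at least 4-fold in 34 (9.92%) and of at least 8-fold in 4 (3.68%). Without KO 0 hr replicate 6 and KO 48 hr replicate 12, an alternative added after the data were seen, all 76 were called in WT and in KO, and the KO median was 2.02.

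**Figure D1:**
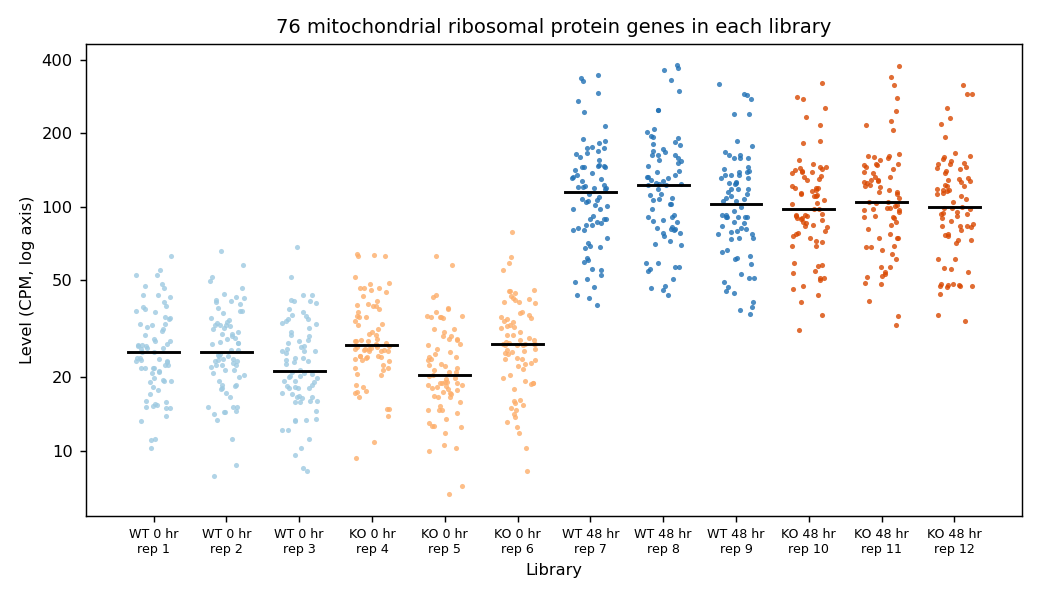
Level of the 76 genes in each library (y axis, TMM-scaled CPM, log axis; x axis, the 12 libraries by group and replicate). Each point is 1 gene and each bar the median over genes, which lies between 20.4 and 27.3 CPM in the 0 hr libraries and between 98.1 and 123 CPM in the 48 hr libraries.

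The size of the rise depended on the scaling. The TMM factors were 1.28 to 1.42 at 0 hr and 0.723 to 0.766 at 48 hr, and the scaling carries part of the size of every change over time. With raw library totals the median of all genes moved by -0.89 (log2) in WT, and the median member rise was 1.34 in WT and 1.14 in KO. With upper-quartile scaling it moved by -0.67, and the rises were 1.56 and 1.32. Relative log expression scaling gave 2.32 and 2.00, and TMM without immunoglobulin, mitochondrial and ribosomal protein genes 2.25 and 1.97. The gap between members and all genes was 2.62 in WT under each of these scalings. A scaling shifts all genes of a library alike, so the gap could hardly move and is no check of the rise. In WT it was 2.94 without the low-count filter, 2.24 with the filter of 1 CPM in 3 libraries, and 2.70 by DESeq2. Before any scaling, members took 0.263% to 0.286% of counts in WT 0 hr and 0.648% to 0.734% in WT 48 hr.

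Markers of other cell types and of division moved with time as well. Sums over 5 markers of dividing cells went from 85.9 to 121 CPM at 0 hr to 2989 to 3350 CPM at 48 hr, and all 5 rose in WT and in KO. The 8 monocyte, macrophage and granulocyte markers summed to 124 to 372 CPM at 0 hr and 14.8 to 31.9 CPM at 48 hr, with 1 of them at 0 in WT 48 hr and none at 0 in the other groups. The 5 erythroid markers found summed to 280 to 3380 CPM at 0 hr and 5.08 to 13.5 CPM at 48 hr. The 4 platelet markers went from 31.9 to 73.8 CPM at 0 hr to 1.56 to 2.35 CPM at 48 hr, and the 9 T cell markers from 61.1 to 130 CPM to 39.8 to 115 CPM. Lck made up most of the T cell sum, with means of 43.0 CPM at 0 hr and 36.6 CPM at 48 hr in WT. In KO its means were 73.3 and 86.4 CPM. Of the 9 T cell markers 6 were called lower in WT (40.9% of all genes) and 7 in KO (37.7%), and 0 higher. The part of these marker lists in the members' rise was not tested, and in bulk RNA more cells with a transcript and more RNA per cell cannot be told apart.

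Homologs of bacterial large-subunit proteins held the largest rise in WT. Mrpl20, the homolog of a bacterial protein of early large-subunit assembly, was at 26.3, 30.1 and 21.3 CPM in WT 0 hr and 292, 331 and 241 CPM in WT 48 hr. In KO its levels were 32.6, 25.4 and 33.7 CPM unstimulated and 233, 247 and 232 CPM stimulated. Every stimulated library lay above every unstimulated one. The log2 fold change was 3.48 in WT (SE 0.16, 11.1-fold, edgeR adjusted p = 4.1e-10) and 2.96 in KO (SE 0.16, adjusted p = 1.6e-09). Of the 29 members in this class all rose, with a median of 2.36 in WT (0.98 to 3.48) and 2.12 in KO. Mrpl47 (3.24), Mrpl35 (2.96), Mrpl12 (2.95), Mrpl30 (2.87) and Mrpl18 (2.86) followed Mrpl20 in WT.

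The stalk of the large subunit recruits translation factors. Mrpl12, which forms the stalk as the homolog of bacterial L7/L12 and is also known to bind the mitochondrial RNA polymerase, was at 35.1, 40.0 and 34.6 CPM in WT 0 hr and 272, 298 and 276 CPM in WT 48 hr. KO libraries held 39.2, 29.4 and 40.5 CPM unstimulated and 253, 279 and 253 CPM stimulated. The rise of Mrpl12 had no overlap between times in WT or in KO (log2 fold change 2.95 and 2.85, SE 0.13 each, edgeR adjusted p = 2.3e-10 and 3.2e-10). The stalk base genes rose less: Mrpl11 went from 25.1 ± 1.31 to 129 ± 10.5 CPM in WT (2.36, SE 0.15, adjusted p = 7.2e-09). Mrpl10, which carries the stalk dimers, went from 44.2 ± 2.05 to 114 ± 4.72 CPM in WT (SD, n = 3; 1.36, SE 0.10, adjusted p = 3.7e-08). Mrpl10 was among the 10 smallest rises in WT, and in KO its log2 fold change was 1.46.

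At the other end of the bacterial class stood Mrpl4, whose homolog lines the exit tunnel of the large subunit. It was at 62.6, 65.8 and 68.3 CPM in WT 0 hr and 130, 132 and 125 CPM in WT 48 hr. KO libraries held 64.0, 62.9 and 78.4 CPM unstimulated and 133, 129 and 127 CPM stimulated. The times did not overlap, and the rise of Mrpl4 was 0.98 in WT (SE 0.10, edgeR adjusted p = 1.2e-06) and 0.92 in KO (adjusted p = 2.2e-06). Mrpl34 (1.18), Mrpl9 (1.45) and Mrpl3 (1.47) were also among the 10 smallest rises in WT. Under raw totals Mrpl4 and Mrpl34 were no longer called in WT (0.08 and 0.29).

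Small-subunit homologs of bacterial proteins rose in all 15 cases, with a median of 2.20 in WT (1.52 to 3.03) and 1.94 in KO. Mrps10, whose homolog sits in the head of the small subunit, went from 18.4 ± 0.922 to 150 ± 12.1 CPM in WT (SD, n = 3; 3.03, SE 0.13, edgeR adjusted p = 1.4e-10). Mrps7, a head protein that binds ribosomal RNA, was at 52.6, 57.7 and 51.5 CPM in WT 0 hr and 245, 248 and 240 CPM in WT 48 hr. The replicates of Mrps7 lay close together, and the rise was 2.18 (SE 0.09, adjusted p = 1.5e-10). Mrps12, the homolog of the bacterial decoding-centre protein S12, was at 22.4, 18.6 and 18.2 CPM in WT 0 hr and 59.6, 58.8 and 51.2 CPM in WT 48 hr. KO libraries held 27.5, 16.6 and 23.7 CPM unstimulated and 47.3, 48.8 and 48.4 CPM stimulated. Mrps12 had the smallest rise of its class (1.52 in WT, 1.09 in KO, SE 0.16 each, adjusted p = 1.5e-06 and 3.7e-05), without overlap between times.

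Mammals carry 3 genes for relatives of the bacterial protein S18, and their rises differed in size. Mrps18c went from 20.4 ± 2.52 to 141 ± 21.1 CPM in WT (2.79, SE 0.19), Mrps18b from 30.4 ± 3.61 to 150 ± 11.3 CPM (2.31, SE 0.11), and Mrps18a from 25.7 ± 2.01 to 81.4 ± 3.67 CPM (1.66, SE 0.11; SD, n = 3). In KO the order was the same, at 2.62, 2.44 and 1.55. The intervals of Mrps18a (1.43 to 1.90) and Mrps18b (2.07 to 2.55) in WT did not meet, while those of Mrps18b and Mrps18c (2.37 to 3.20) did. By structure the product of Mrps18a lies in the large subunit, as does that of Mrps30, which went from 40.1 ± 4.07 to 124 ± 9.59 CPM (1.62, edgeR adjusted p = 3.2e-08).

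Members particular to mitochondria rose as well. The 10 of the small subunit had a median of 2.15 in WT (1.04 to 3.24) and 1.91 in KO. Mrps22, mutated in a mitochondrial disease of infancy, was at 15.3, 14.5 and 14.5 CPM in WT 0 hr and 138, 155 and 126 CPM in WT 48 hr. It was at 14.9, 10.3 and 14.1 CPM in KO 0 hr and 120, 122 and 111 CPM in KO 48 hr. The stimulated libraries of Mrps22 lay at 7.46 times the highest unstimulated one or more in KO, and its log2 fold change was 3.24 in WT and 3.17 in KO (SE 0.14 each, edgeR adjusted p = 2.1e-10 and 2.6e-10). Mrps26 (1.04), Mrps25 (1.20) and Mrps35 (1.25) stood at the low end in WT.

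The 19 members of the large subunit that are particular to mitochondria had a median of 1.98 in WT (0.56 to 3.04) and 1.84 in KO. Mrpl42 led them, from 39.7 ± 5.66 to 326 ± 37.7 CPM in WT (SD, n = 3; 3.04, SE 0.16, edgeR adjusted p = 1.2e-09). Mrpl45, which lies at the tunnel exit and holds the ribosome to the inner membrane, went from 33.3 ± 2.44 to 169 ± 5.63 CPM (2.34, SE 0.11). Mrpl44, a protein with a ribonuclease III-like fold, went from 20.3 ± 2.94 to 68.2 ± 7.37 CPM (1.75, SE 0.15). Mrpl38 was at 43.3 ± 3.49 and 93.2 ± 4.23 CPM (1.11, SE 0.09).

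Mrpl43 had the smallest rise of the 76. It was at 40.6, 33.3 and 36.1 CPM in WT 0 hr and 55.7, 55.4 and 50.8 CPM in WT 48 hr, and in KO at 44.6, 35.1 and 35.4 CPM unstimulated and 53.3, 51.3 and 46.8 CPM stimulated. Times did not overlap, though in KO the lowest stimulated library was only 1.05 times the highest unstimulated one. Its log2 fold change was 0.56 in WT (SE 0.12, edgeR adjusted p = 0.0011) and 0.40 in KO (SE 0.12, adjusted p = 0.01). Mrpl43 is the only member whose direction turned with the scaling: with raw totals it was called lower, at -0.33 in WT (adjusted p = 0.028) and -0.42 in KO (adjusted p = 0.0089), and with upper-quartile scaling it was at -0.12 and -0.24, not called. Exons of Mrpl43 overlap those of Twnk on the other strand over 507 bases, and the library kit does not record strand, so reads there cannot be told apart.

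The 3 remaining members were left out of the class lists used here, which does not mean that their products lie in neither subunit. Mrps28 rose from 15.1 ± 2.59 to 147 ± 22.5 CPM in WT (SD, n = 3; 3.28, SE 0.18, edgeR adjusted p = 2e-09). Mrps36, whose product is known as a subunit of the 2-oxoglutarate dehydrogenase complex of the citric acid cycle, went from 17.6 ± 1.49 to 70.0 ± 7.94 CPM (1.99, SE 0.18, adjusted p = 2.8e-07). Mrpl55 was at 2.25 on the log2 scale, close to the median of all members. The member name Mrpl58 is not used in the table, where the gene stands under its older name Ict1 (1.92, adjusted p = 6.5e-07), outside the 76.

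Rises in WT and KO were ordered alike. Of the 10 largest rises 9 were shared, and of the 10 smallest 7, with Mrps18c entering the largest in KO and Mrps12, Mrpl24 and Mrps23 the smallest. Across the 76 genes Pearson's r between the WT and the KO log2 fold changes was 0.956 and Spearman's rho 0.941, a description over genes that share libraries and scaling. The rise was smaller in KO than in WT in 65 of 76 members. The rise in WT was unrelated in rank to transcript length (rho -0.13) and to the level per kilobase in WT 0 hr (rho -0.01).

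**Figure D2:**
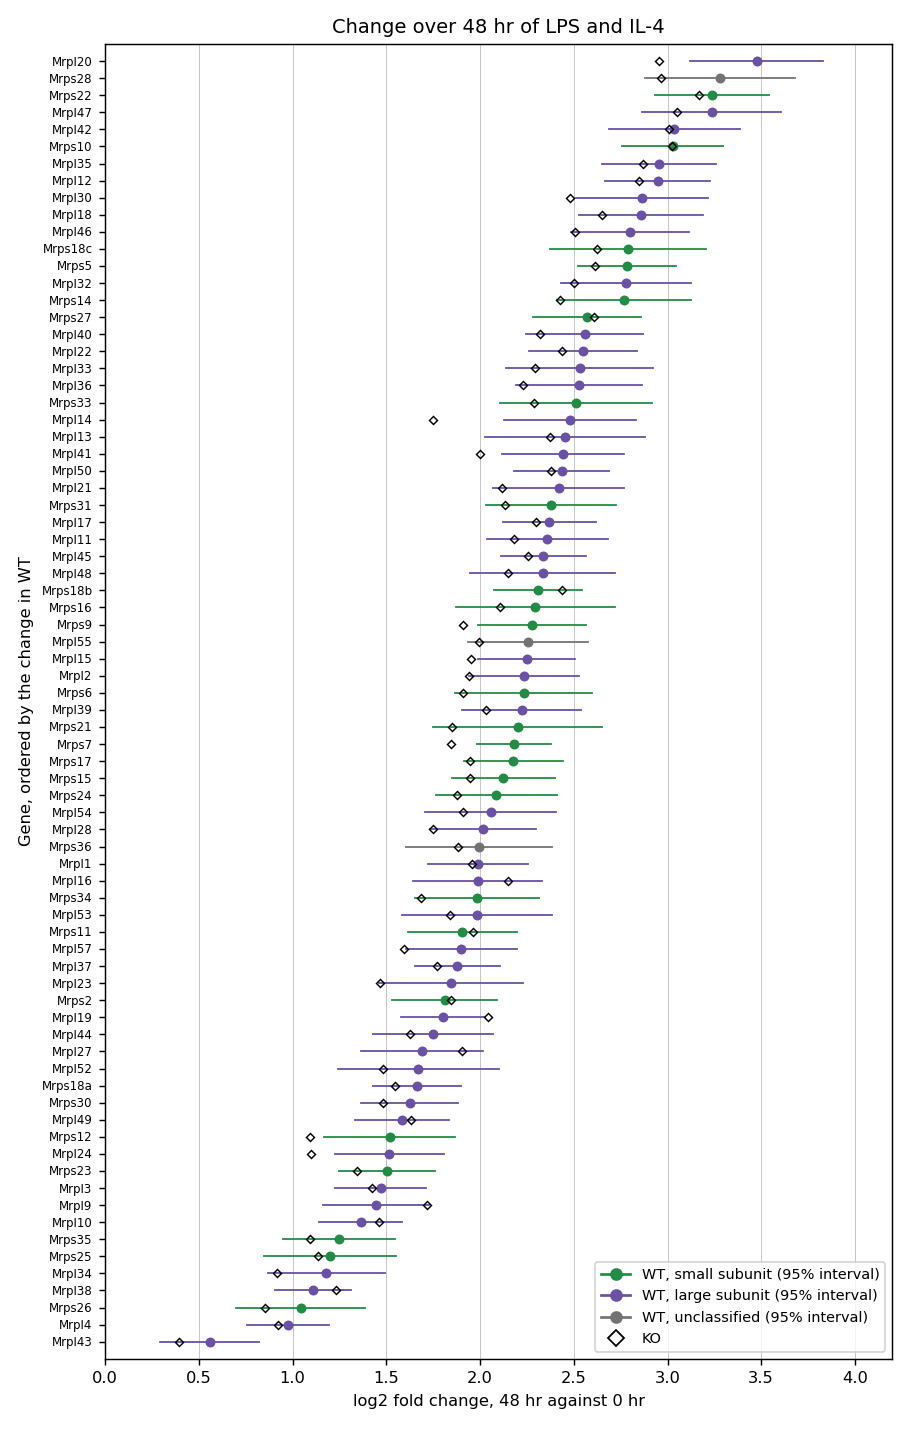
Change of each of the 76 genes over 48 hr (x axis, log2 fold change of 48 hr against 0 hr; y axis, genes ordered by the change in WT). Filled points are WT with the 95% interval of the edgeR fit, coloured by the subunit that holds the protein, or grey for members left out of the class lists. Open diamonds are KO. All points lie above 0, from 0.40 to 3.48, with Mrpl43 lowest and Mrpl20 highest in WT.

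Levels per kilobase of the GENCODE principal transcript allow genes to be set side by side. Mrpl42 was highest at both times, at 59.6 ± 8.50 CPM per kb in WT 0 hr and 489 ± 56.7 in WT 48 hr (SD, n = 3). Next at 0 hr came Mrpl4 (50.9 ± 2.21), Mrps21 (47.8 ± 8.32), Mrps15 (44.1 ± 5.08) and Mrpl23 (43.8 ± 5.84), neighbours that did not differ beyond their spread. At 48 hr Mrpl20 stood in place 2 (377 ± 59.3), ahead of Mrpl18 (283 ± 21.8), while Mrpl4 stood in place 27 (100.1 ± 2.89 CPM per kb). The lowest levels per kb were those of Mrpl47 at 0 hr (2.81 ± 0.432) and Mrps25 at 48 hr (8.45 ± 0.795). Between the highest and lowest member the level per kb differed 21.2-fold in WT 0 hr and 57.9-fold in WT 48 hr. Long annotated ends lower such values, and principal transcripts of members ran from 418 to 7300 bases.

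At 0 hr 0 of 76 members were called by edgeR's quasi-likelihood test (1.11% of all genes), with 2 at an unadjusted p below 0.05 (10.7%), 1 of them lower (4.17%), and 0 called by DESeq2 (3.75% of its genes) or limma-voom (1.23%). The number called over all genes, 212, was 79 without WT 0 hr replicate 3 and 426 without KO 0 hr replicate 6, the ends of its range over the 12 fits that left out a library, and members stayed at 0. The median log2 fold change of KO against WT was 0.07, from -0.31 to 0.43, against 0.00 for all genes. In 3 members every KO library was below every WT library (7.92% of all genes), and in 1 every KO library was above (7.02%). The median SE was 0.14. Mrpl19, a large-subunit protein, was at 31.5, 27.5 and 25.6 CPM in WT and 21.7, 22.7 and 23.9 CPM in KO. All 3 KO libraries of Mrpl19 lay below all WT libraries, and the fitted change was -0.31 (SE 0.10, 95% interval -0.53 to -0.09, adjusted p = 0.24). Mrpl52 was at 13.9, 14.4 and 11.1 CPM in WT and 24.0, 13.5 and 15.7 CPM in KO, an overlap set by KO replicate 5 (0.43, adjusted p = 0.46). Mrps7 was at 53.9 ± 3.34 and 61.2 ± 2.90 CPM (0.18, 95% interval -0.01 to 0.37, adjusted p = 0.49).

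KO 0 hr replicates 4 and 5 stood on opposite sides of their group. In replicate 5 all 76 members lay below the group mean of log2 CPM (median deviation -0.25), and in replicate 4 it was 69 that lay above it (median deviation 0.18). The same 2 libraries differed in markers of other cells. T cell markers summed to 124 CPM in replicate 4 and 130 CPM in replicate 5, against 61.1 to 70.3 CPM in the other 0 hr libraries. Lck alone was at 90.8 and 85.7 CPM in replicates 4 and 5, against 41.1 to 44.2 CPM in the others. Erythroid markers summed to 3380 and 280 CPM against 598 to 884 CPM. Monocyte, macrophage and granulocyte markers summed to 181 and 372 CPM against 124 to 241 CPM, and plasma cell markers to 551 and 887 CPM against 411 to 609 CPM, so that replicate 4 lay within the range of the others in both. Their part in the members' levels was not tested. Without replicate 4 or 5 in turn, 0 members were called at 0 hr, and the median over all 12 such fits ran from -0.03 to 0.18.

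At 48 hr members were lower in KO more often than higher, but 0 of 76 were called by edgeR's quasi-likelihood test (2.02% of all genes), with 6 at an unadjusted p below 0.05 (14.4%), 5 of them lower (5.55%), 2 called by DESeq2 (5.72% of its genes) and 0 by limma-voom (1.01%). The 386 genes called in all became 136 to 152 without any 1 of the WT 48 hr libraries or KO 48 hr replicates 10 or 11, 1080 when KO 48 hr replicate 12 was left out (5.47%) and 1351 when KO 0 hr replicate 6 was dropped as well (6.91%), with 0 members called in each. The median log2 fold change was -0.12, from -0.59 to 0.33, against 0.01 for all genes. It lay below 0 in 55 of 76 members (72.4%), against 48.6% of all genes. In 17 members every KO library was below every WT library (9.53% of all genes), and in 0 every KO library was above (10.7%). Summed CPM overlapped between the labels, since WT replicate 9 (8635 CPM) lay below KO replicate 11 (9106 CPM). Leaving WT 48 hr replicate 9 out gave a median of -0.24, the lowest of the 12 fits that left out a library (-0.24 to -0.11).

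Mrpl14, the homolog of a bacterial protein at the face between the subunits and the binding partner of the assembly factor MALSU1, had the lowest p at 48 hr. It was at 61.6, 69.7 and 58.1 CPM in WT and 40.5, 41.0 and 44.0 CPM in KO. No KO library of Mrpl14 reached the lowest WT library, while at 0 hr its libraries overlapped (11.1, 13.3 and 9.58 CPM in WT, 14.8, 10.0 and 12.5 CPM in KO). On the log2 scale KO was at -0.59 (SE 0.15, 95% interval -0.93 to -0.26, edgeR adjusted p = 0.072). DESeq2 called it lower (-0.65, adjusted p = 0.0053), as did edgeR on the 6 libraries at 48 hr (-0.59, adjusted p = 0.017). Over the 12 fits that left out 1 library its adjusted p ran from 0.038 to 0.24, under 0.05 without KO 0 hr replicate 4 (0.047) or 5 (0.038), and without KO 0 hr replicate 6 and KO 48 hr replicate 12 it was 0.06. Exons of Mrpl14 overlap Tmem63b on the other strand over 106 bases.

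Next by p at 48 hr came Mrps15 and Mrpl30, homologs of bacterial proteins. Mrps15 was at 182, 191 and 168 CPM in WT and 141, 133 and 146 CPM in KO, without overlap. Its log2 fold change was -0.37 (SE 0.12, 95% interval -0.63 to -0.10, edgeR adjusted p = 0.16; DESeq2 -0.43, adjusted p = 0.031; edgeR on the 6 libraries -0.36, adjusted p = 0.042). Mrpl30 was at 185, 195 and 164 CPM in WT and 122, 133 and 150 CPM in KO, again without overlap (-0.43, SE 0.15, adjusted p = 0.19). Mrpl20 overlapped between the labels at 48 hr through WT replicate 9 (-0.28, adjusted p = 0.43).

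Mrpl12 was at 282 ± 13.9 CPM in WT and 262 ± 14.8 CPM in KO at 48 hr (-0.11, 95% interval -0.37 to 0.15, edgeR adjusted p = 0.76). Mrps18b was at 150 ± 11.3 and 154 ± 4.75 CPM (0.04, -0.19 to 0.26, adjusted p = 0.93), and Mrpl4 at 129 ± 3.72 and 130.1 ± 3.00 CPM (0.01, -0.21 to 0.22). T cell markers summed to 115 CPM in KO 48 hr replicates 10 and 11 and 45.8 CPM in replicate 12, against 39.8 to 44.3 CPM in WT 48 hr. Lck alone was at 110, 108 and 41.9 CPM in these KO libraries and 35.2 to 39.4 CPM in WT 48 hr. At 48 hr 0 of the 9 T cell markers were called between genotypes (2.02% of all genes). Plasma cell markers summed to 769 to 985 CPM in KO against 651 to 665 CPM in WT. Their part in the members' levels was not tested.

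**Figure D3:**
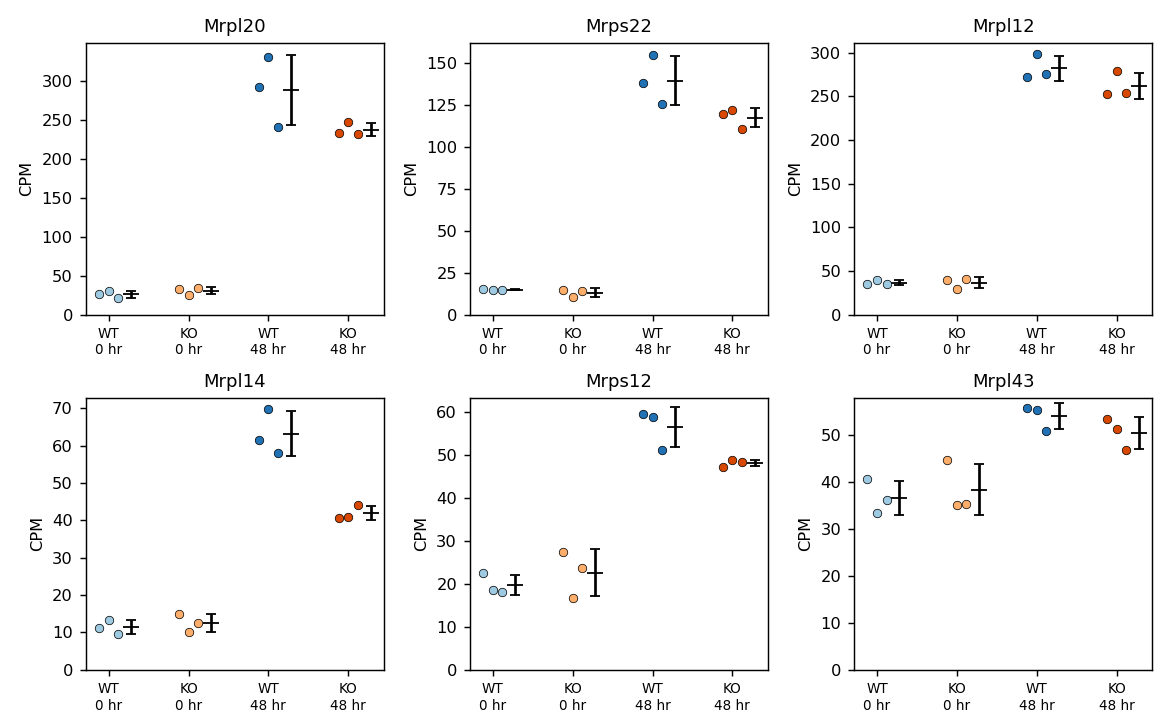
Level of 6 genes (y axis, TMM-scaled CPM from 0) in the 4 groups (x axis). Points are single libraries and bars the mean and SD of 3. On the log2 scale, Mrpl14 is the gene whose KO libraries at 48 hr (40.5 to 44.0 CPM) lie farthest below WT (58.1 to 69.7 CPM). Mrpl43 changes least over time.

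The interaction compares the genotype effect at 48 hr with that at 0 hr, which is also the KO rise less the WT rise. By edgeR's quasi-likelihood test 0 of 76 members were called (0.115% of all genes), and 0 by DESeq2 (1.26%) or limma-voom (0.0889%). Over all genes 22 were called, 3 without WT 48 hr replicate 7 and 90 without KO 48 hr replicate 12, the ends of the range with 1 library left out. At an unadjusted p below 0.05 stood 5 members (8.61% of all genes), all with a smaller rise in KO (3.73% of all genes). The median was -0.18 (-0.73 to 0.27) with a median SE of 0.20, against 0.01 for all genes, and 65 of 76 lay below 0 (85.5%, against 48.6% of all genes). Mrpl14 had the lowest p (-0.73, SE 0.22, 95% interval -1.20 to -0.25, adjusted p = 0.32). Mrps7 was at -0.34 (-0.60 to -0.07, adjusted p = 0.46) and Mrpl20 at -0.52 (-0.98 to -0.06, adjusted p = 0.51). Over fits that left out 1 library the median ran from -0.31 to -0.08, and without both KO 0 hr replicate 6 and KO 48 hr replicate 12 it was -0.11.

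**Figure D4:**
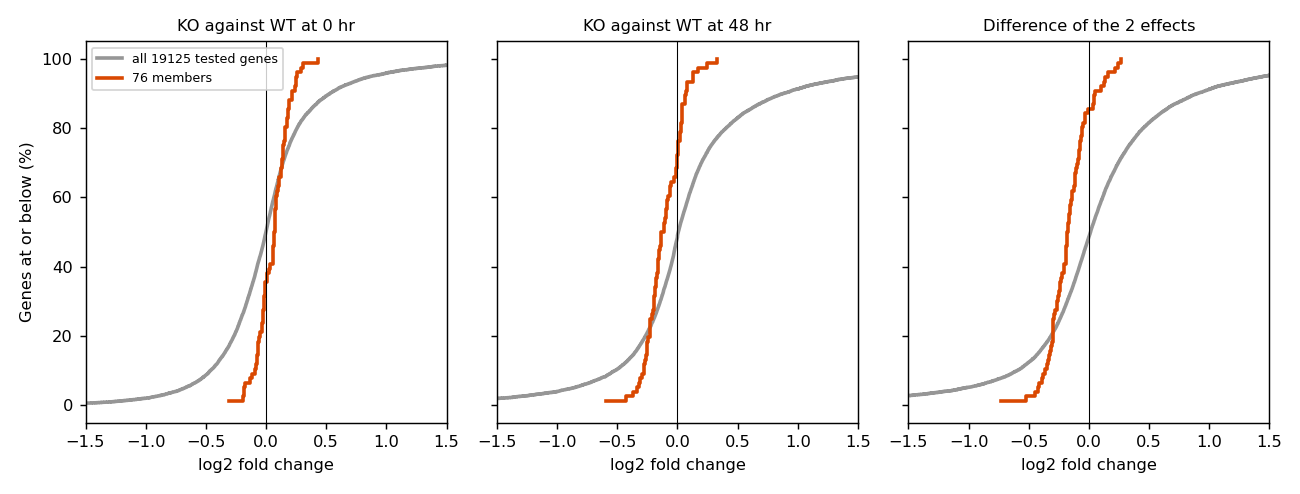
Share of genes (y axis, percent) at or below each log2 fold change (x axis, cut at 1.5 on either side) for KO against WT at 0 hr, at 48 hr and for the difference of these 2 effects. The 76 members (orange) lie within a narrow range around medians of 0.07, -0.12 and -0.18, and all 19125 tested genes (grey) around 0.00, 0.01 and 0.01.

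By class, the genotype medians at 48 hr were -0.18 for bacterial small-subunit homologs (13 of 15 below 0), -0.16 for bacterial large-subunit homologs (20 of 29), -0.13 for small-subunit members particular to mitochondria (6 of 10) and -0.06 for large-subunit ones (14 of 19). No member of any class was called at 0 hr or 48 hr. Cytosolic ribosomal protein genes, which encode the other ribosome of the cell, had 0 of 84 called at 48 hr as well, a median of -0.22, and all 84 below 0. Over time 81 of those 84 rose in WT (median 2.27) and 80 in KO (median 1.95), against 33% of all genes in each. Their medians and those of the mitochondrial members (2.23 and 1.95) were close, and the difference between the lists was not tested.

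Proteins of the mitochondrial ribosome that carry other names behaved alike over time. All 6 found in the table rose in WT and in KO (33% of all genes in each), with a median of 2.03 in WT. They included Ptcd3 (2.84, edgeR adjusted p = 3.8e-10), Dap3 (1.96, adjusted p = 1e-09), a GTP-binding small-subunit protein, and Chchd1 (3.51, adjusted p = 1.3e-09). Assembly and rRNA modification genes rose in 21 of 26 cases in WT and 22 in KO, with 1 lower in each, and a median of 0.95 in WT. Rnmtl1, a methyltransferase of the large rRNA (2.51), Fastkd2 (3.12) and the GTPase Mtg1 (1.93) had the lowest p. Mettl17 fell by 0.77 in WT (adjusted p = 7.3e-05) and was named after its value was seen.

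Factors of mitochondrial translation rose in all 15 cases in WT and in 13 in KO (median 1.25 and 1.34). Over all genes 33% rose and 40.9% fell in WT, and 33% and 37.7% in KO. Slirp, which stabilises mitochondrial mRNAs with LRPPRC, rose by 3.25 in WT, the elongation factor gene Tufm by 1.91 and the recycling factor gene Mrrf by 2.54. Mitochondrial DNA and transcription genes rose in 7 of 10 cases in WT and in KO (median 1.19 in WT), among them Top1mt (2.20), Tfb2m (1.62) and Tefm (2.56). Of 9 regulators, 5 rose and 2 fell in WT and in KO. Myc (1.80), Gabpb1 (1.06) and Gabpa (1.41), of the ETS factor GABP, rose. Ppargc1a (-2.26) and Esrra (-0.76), named after their values were seen, fell. Nrf1 and Yy1 were also among the 9, and their values are not given here. A link between the regulators and the promoter strings was not tested. In each of these 5 lists 0 genes were called between genotypes or in the interaction. Transcripts of mitochondrial DNA, which this ribosome translates and which include its rRNAs, were not analysed here.

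Some members share a start region with a neighbour. In 17 of 76 (22.4%) another coding gene starts within 1000 bases upstream and runs in the opposite direction, against 9.16% of the 14546 tested coding genes. Opposite pairs whose starts overlap, such as Mrpl46 and Mrps11, were not counted. Of the 16 neighbours tested, 10 rose and 3 fell in WT, and 11 rose and 3 fell in KO. Over all genes 33% rose and 40.9% fell in WT, and 33% and 37.7% in KO. The median of the neighbours was 0.85 in WT, against -0.39 for all genes. Ska3, a spindle gene 49 bases from Mrpl57, rose by 4.01 in WT, and the proteasome gene Psma2, 75 bases from Mrpl32, by 3.00. Sars2, the mitochondrial seryl-tRNA synthetase gene, lies 172 bases from Mrps12 and rose by 1.00 (edgeR adjusted p = 2.6e-06). Klc4 next to Mrpl2 was at -1.16 in WT (adjusted p = 0.0011) although Mrpl2 rose. Neighbours were named after their values were seen.

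Exons of 20 members overlap a gene on the other strand, so their levels are uncertain by the reads that fall there. The overlap is longest in Mrps25, with 4590 bases shared with Nr2c2, followed by Mrpl19 with Gcfc2 (1962 bases) and Mrps34 with Mapk8ip3 (1309 bases). Overlaps were counted over exons of all GENCODE transcripts of both genes. They can thus exceed the principal transcript, which has 918 bases in Mrps34. Mrpl46 and Mrps11 overlap each other over 173 bases. On chromosome 6, which carries Chd4, lie 6 members, the nearest of which, Mrps35, is 21.9 Mb away.

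Transcripts of 1 gene did not all move together. For 38 of the 76 members the table holds 2 or more transcripts. Taken as features of their own, 141 of 142 member transcripts could be tested: 108 rose and 5 fell in WT (24.7% of all transcripts rose and 27.8% fell), and 103 rose and 5 fell in KO (23.8% and 26%). Those that fell belonged to Mrpl38, Mrpl4, Mrps10, Mrps15 and Mrps22 in both genotypes. By edgeR 0 were called between genotypes (0.227% and 0.341% of all transcripts) or in the interaction (0.00819%).

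The share of a gene's counts taken by its leading transcript, the one with the highest mean share, moved over time in several members. In Mrps22 it was 78.1%, 77.8% and 73.0% in WT 0 hr and 99.0%, 99.2% and 98.8% in WT 48 hr. In Mrps31 it was 69.1%, 77.1% and 68.7%, then 97.2%, 96.9% and 95.5%. In Mrpl38 it was 57.5%, 60.7% and 49.0%, then 88.2%, 86.5% and 79.8%. In these 3 genes the times did not overlap, in WT or in KO.

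Mrps10 also changed its make-up. Its leading transcript went from 17.4% to 50.5% in WT and from 16.4% to 52.1% in KO (means, n = 3), while another took 27.8%, 38.7% and 39.1% in WT 0 hr and 0% in all 3 WT 48 hr libraries. In Mrpl13 the leading share rose from 62.4% to 83.8% in WT without overlap, and was 59.8% and 67.7% in KO, where the times overlapped (55.8% to 67.6% at 0 hr, 61.8% to 75.3% at 48 hr). In Mrpl55 the leading share at 0 hr was 33.3%, 44.8% and 36.3% in WT and 72.4%, 64.5% and 57.4% in KO. These differences between the genotypes were not tested. Over the 38 members the leading share lay higher in every 48 hr library in 18 in WT (47.4%), against 40.2% of 7812 genes with 2 or more transcripts, so a shift of this kind was about as frequent as in other genes. In KO it was 15 (39.5% against 37.5%). The leading share lay lower in every 48 hr library in 3 members in WT (7.89%, against 11.8% of those genes). In KO it lay lower in 4 (10.5% against 11.2%). Mrpl41 was among these in both genotypes, from 58.5% to 53.7% in WT and from 57.1% to 52.8% in KO (means, n = 3). Salmon divides reads among similar transcripts, which makes these shares less certain than the gene sums.

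**Figure D5:**
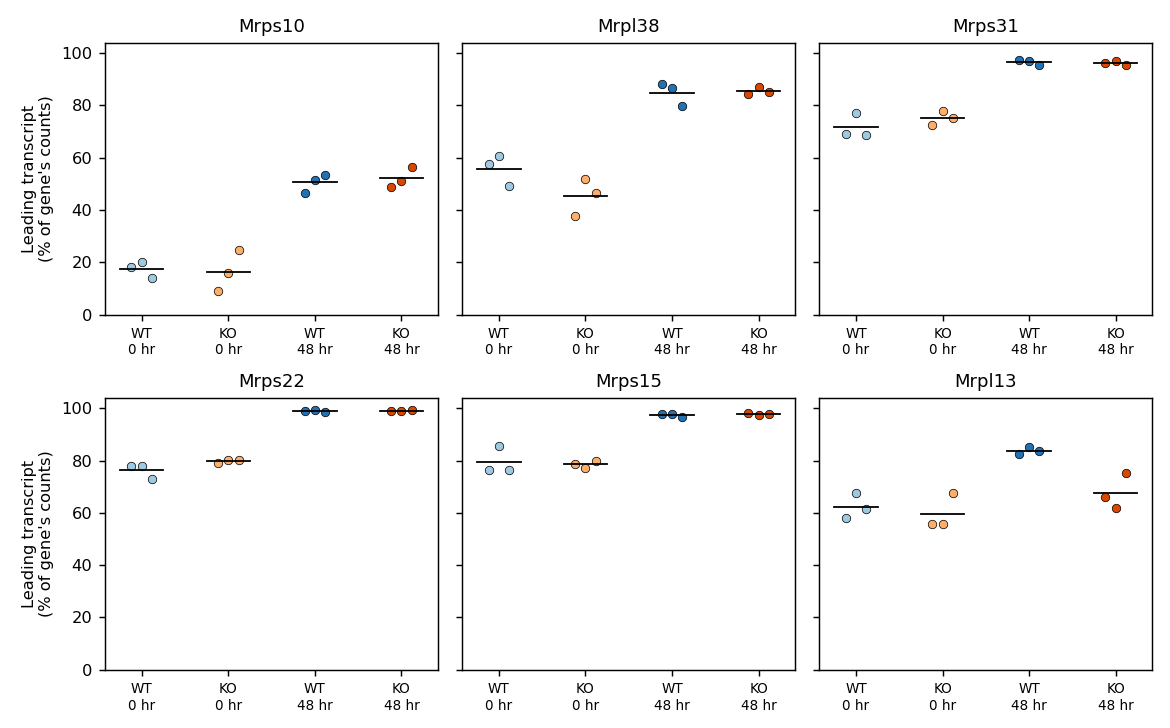
Share of a gene's counts in its leading transcript (y axis, percent) in the 4 groups (x axis) for 6 genes with 2 or more transcripts. Points are single libraries and bars the mean of 3; the mean share is higher at 48 hr in both genotypes in all 6, and in Mrpl13 (83.8% in WT and 67.7% in KO at 48 hr) the KO libraries of the times overlap.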

How the data were processed

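Per the labels' protocols, RNA was amplified with SMART-Seq v4 and paired-end libraries followed a KAPA Hyper protocol. The table deposited by the authors gives whole-number estimated counts, 1 per transcript and library. Per the submitters' processing notes, bcl2fastq 2.20.0.422, Trimmomatic 0.36, Salmon 0.8.2 and DESeq2 1.14.1 were used with the mm10 build.

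The members, gene lists and tests were chosen with earlier results of these data known. Counts of 63759 transcripts were summed to gene names. Genes were filtered with filterByExpr, scaled by TMM and fitted in R 4.3.3 with the robust quasi-likelihood test of edgeR 4.0.16 (all 12 libraries as 4 groups, 8 residual degrees of freedom). Benjamini-Hochberg adjustment ran over 19125 genes, and a gene was called under 0.05. A 95% interval comes from the same fit. The fit was also run on simulated data in which few genes changed, which cannot check the scaling over time.

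Members named were the 10 largest and 10 smallest changes over time at 5 CPM or more, the 3 lowest p in each other contrast, and 13 standing members, with at most 3 genes of each other list. Leading transcripts were compared in genes with 20 or more counts in every library. Alternatives were DESeq2 1.42.0, limma-voom (limma 3.58.1), 4 other scalings, 2 other filters, 6-library fits, transcripts as features and leaving out each library; leaving out KO 0 hr replicate 6 with KO 48 hr replicate 12 was added after the data were seen. The result for 1 marker gene is not reported here. Overlaps, lengths and neighbours are from GENCODE M21 on mm10. Intervals cover the spread between libraries only. Figures used matplotlib 3.10.9.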

Additional observations from a re-analysis of the deposited data

How the results depend on the processing

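All 76 members stayed called higher over time in WT and in KO with each library left out and under DESeq2, limma-voom, relative log expression scaling, TMM without immunoglobulin, mitochondrial and ribosomal protein genes, and no low-count filter. Over all genes, 50.1% to 74.1% were called in either direction in these settings. With raw totals 71 members were called higher in WT and 68 in KO, and with upper-quartile scaling 74 and 73. Of all genes, 81.2% in WT and 78.4% in KO were called in either direction with raw totals. With upper-quartile scaling it was 79.1% and 76.9%. Mrpl43 lost its KO call at 1 CPM or more in 3 libraries (0.22, adjusted p = 0.12) and in the 6-library fit (0.35, adjusted p = 0.051). It was negative with upper-quartile scaling (-0.12 in WT, -0.24 in KO) and raw totals (-0.33 and -0.42). The median rise was 1.56 (upper quartile), 1.34 (raw totals) and 2.08 (1 CPM filter) in WT and 1.32, 1.14 and 1.78 in KO. The 1 CPM filter keeps fewer genes for the same scaling, and for the scalings the all-gene median moved with the members. Over fits that left out 1 library, the median was 2.16 to 2.32 in WT, 1.85 to 2.06 in KO, -0.03 to 0.18 for genotype at 0 hr, -0.24 to -0.11 at 48 hr and -0.31 to -0.08 in the interaction. Members called between genotypes at 48 hr numbered 2 by DESeq2 (5.72% of all genes), 2 in the 6-library fit (2.9%), 1 under the 1 CPM filter (2.37%), and 0 to 1 over the fits that left out 1 library; the cause was not tested. At 0 hr and in the interaction 0 were called in any setting run. No paired analysis was run, since the groups share no replicate number and the labels do not say which 0 hr and 48 hr libraries belong together. Lck was at 90.8, 85.7 and 43.5 CPM in KO 0 hr replicates 4, 5 and 6. In KO 48 hr replicates 10, 11 and 12 it was at 110, 108 and 41.9 CPM. A pairing of these libraries was not tested. With 3 libraries a group and a median SE of 0.14, changes as large as that of Mrpl14 at 48 hr (-0.59) missed the threshold, so smaller genotype changes may not be detectable.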
